A study of Mus musculus with 12 samples.

Results

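The 4 libraries described here hold the small RNAs of mouse testis that survived oxidation with sodium periodate (NaIO4) when the reaction began with 10 ng or with 100 ng of total RNA. They were chosen by their labels alone, as 2 technical replicates at each input, out of 12 libraries in the series. The series used testis RNA of male C57BL/6 mice aged 4 months, and made small-RNA libraries of 17 to 40 nt with the method the labels call 10ng-seq, before and after oxidation, from 10, 50 and 100 ng. All 4 libraries share the strain, tissue, age, library method and oxidation, and the spike-in RNA was scaled to the input, at 5e-09 ul for 10 ng and 5e-08 ul for 100 ng. The question the design puts is whether a small input gives the same oxidation-resistant population as a large one. The labels give technical replicates and no number of mice, so every p-value below measures the spread between libraries and not between animals.

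Periodate cleaves a 3′ end that carries both free hydroxyls, and RNA so oxidized cannot take a 3′ adapter. A 2′-O-methyl group on the last nucleotide blocks the cleavage. In the mouse testis that mark is placed on PIWI-interacting RNAs (piRNAs) by the methyltransferase HENMT1, and most animal miRNAs lack it. Pachytene piRNAs, the bulk of the piRNAs in the adult testis, are cut from long precursor transcripts, most of them non-coding, and are bound by the PIWI proteins MIWI and MILI. Their 5′ end is most often a U, and an A at base 10 is the mark of piRNAs made by reciprocal (ping-pong) cutting.

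The sequences below are piRNAs on which the results turn and whose place could be found. They matched without mismatch a single stretch of 1 non-coding transcript in GENCODE M21 (mouse build GRCm38), in the sense direction and within an exon. The genome itself was not searched, so copies outside the annotated transcripts were not looked for. They are written as DNA, 5′ to 3′, with a U (T) at the 5′ end and an A at base 10 in capitals. The letters after "piRNA" are names given here. piRNA B and D are among the 4 most abundant sequences, V is the most abundant of 33 to 40 nt, E, Y and Z were high at 10 ng, and AA, AB and AC were high at 100 ng. Y, Z, AA, AB and AC were picked after their values were seen, as the largest differences among sequences with a known place.
piRNA B (Gm21269, chr7:73824992-73825021, plus strand): Tatgtgaatttcaactgttggctccacagg
piRNA D (Gm14244, chr2:127692460-127692490, plus strand): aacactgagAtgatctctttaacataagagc
piRNA V (Gm10619, chr7:73809728-73809760, minus strand): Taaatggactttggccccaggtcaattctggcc
piRNA E (Gm5878, chr6:85113318-85113347, minus strand): Ttacagtaggcttgacttctctttggtagt
piRNA Y (Gm10619, chr7:73809384-73809409, minus strand): TaaaaagatAggttggcactccctga
piRNA Z (Gm49794, chr17:27357639-27357662, plus strand): TtttggctcAtggatctggaagtt
piRNA AA (Gm49794, chr17:27362313-27362341, plus strand): Tccgagaatgagagcagcacagcacgcgt
piRNA AB (Gm30132, chr8:93418445-93418476, minus strand): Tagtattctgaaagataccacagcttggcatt
piRNA AC (Gm41109, chr14:24425794-24425824, minus strand): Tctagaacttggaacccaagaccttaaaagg

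For the miRNAs described further on, the mature sequences are those of RefSeq (GRCm38.p6), with the seed (bases 2 to 8) in capitals. No seed was shared among them. They are shown because they were the miRNAs lower at 10 ng (miR-99b-5p and miR-30a-5p), among the highest of the 4 libraries (miR-741-3p, miR-468-5p, miR-3471 and miR-10b-5p) or the highest of the let-7 family (let-7f-5p).
miR-99b-5p: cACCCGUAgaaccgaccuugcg
miR-30a-5p: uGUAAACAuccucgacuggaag
miR-741-3p: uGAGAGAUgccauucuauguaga
miR-468-5p: gACUGAUGuacugauaagaaacucagu
miR-3471: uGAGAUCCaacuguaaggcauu
miR-10b-5p: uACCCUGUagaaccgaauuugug
let-7f-5p: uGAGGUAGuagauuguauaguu

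The deposited values are reads per 1000000 (RPM), and their steps gave back whole reads and the total each library was divided by. The 10 ng libraries rested on 2162327 and 1924201 reads and the 100 ng libraries on 3347004 and 3166360. Of these, 1986353 and 1695105 reads at 10 ng and 3060976 and 2873009 at 100 ng were in the piRNA table. Reads of the miRNA table numbered 634 to 937 in each of the 4 libraries.

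Far fewer distinct piRNA sequences were found at 10 ng. There were 59302 and 42603 at 10 ng, against 210525 and 188307 at 100 ng. Drawn down to an equal depth of 1695105 piRNA reads, the 10 ng libraries held 58757 and 42603 sequences and the 100 ng libraries 187587 and 172116. The groups did not overlap and differed 3.55-fold, with an exact 2-sided permutation p of 0.333, the smallest that 2 libraries against 2 allow. The 50 ng libraries after oxidation held 164606 and 164208 at that depth. Before oxidation the same depth gave 209149 and 200284 sequences at 10 ng and 278858 and 270635 at 100 ng, so the gap between inputs was present there too and was narrower. That difference between the gaps was not tested.

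**Figure D1:**
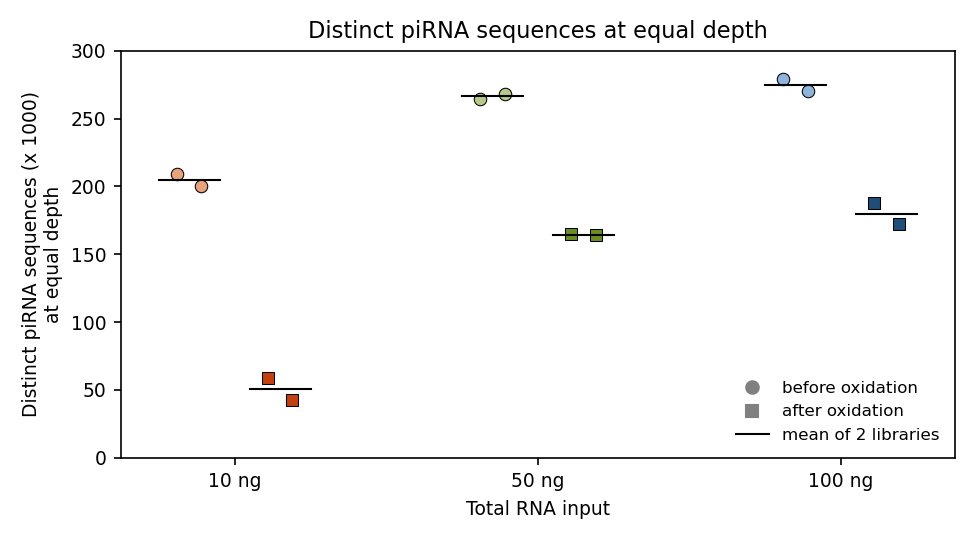
Distinct piRNA sequences expected in each library at 1695105 piRNA reads, by input, with circles for libraries before and squares for libraries after oxidation and a line at the mean of each pair. The 10 ng libraries after oxidation sit at 58757 and 42603, below the 10 other libraries.

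The sequences that were found at 10 ng were found many times. Each distinct sequence had on average 33.5 and 39.8 reads at 10 ng and 14.5 and 15.3 at 100 ng. The median was 21 and 28 reads at 10 ng and 4 in both 100 ng libraries. Sequences seen in 1 read made up 6.09% and 7.03% of the distinct sequences at 10 ng and 13.2% and 11.6% at 100 ng, and those with 10 reads or more made up 87.7% and 88.8% against 20.3% and 21.1%. When only 10000 reads were drawn from each library, the order turned, with 7770 and 7604 distinct sequences at 10 ng and 6984 and 6846 at 100 ng. Reads were also spread more evenly among the top sequences: the 100 highest held 7.77% and 7.70% of the piRNA RPM at 10 ng and 13.7% and 14.3% at 100 ng.

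Detection was then read on a scale that neither group had set, the mean level in the 50 ng libraries after oxidation. Of 340 sequences at 200 RPM or more, 100% and 99.4% were present in the 10 ng libraries and 100% in both 100 ng libraries. Of 3974 sequences at 20 to 50 RPM, 83.1% and 72.4% were present at 10 ng and 100% in each 100 ng library. At 5 to 10 RPM (12961 sequences) the shares were 47.5% and 34.7% at 10 ng and 96.6% and 95.1% at 100 ng. Sampling of reads alone, at the depth of the 10 ng libraries, would have shown 100% of the sequences at 5 to 10 RPM. In the 10 ng libraries before oxidation 85.9% and 84.5% of them were present. At 20 to 50 RPM the 10 ng libraries after oxidation thus lacked sequences that both 100 ng libraries held, and replicate 2 lacked more of them than replicate 1 in each of the 9 classes of level.

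**Figure D2:**
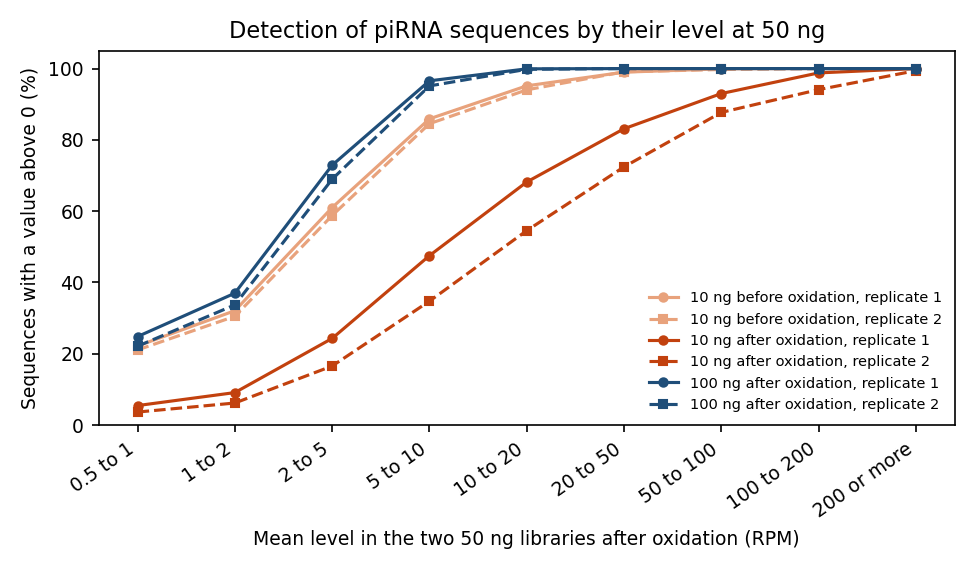
Share of piRNA sequences (%) with a value above 0 in each library, in 9 classes of mean level (RPM) in the 50 ng libraries after oxidation, for the 10 ng and 100 ng libraries after oxidation and the 10 ng libraries before it. At 5 to 10 RPM the 10 ng libraries after oxidation are at 47.5% and 34.7% and the 100 ng libraries at 96.6% and 95.1%.

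The 10 ng replicates held different sequences. They shared 15326, which was 25.8% of the sequences of replicate 1 and 36.0% of those of replicate 2, and 52.7% and 58.1% of their piRNA RPM. The 100 ng replicates shared 92318 sequences, 43.9% and 49.0% of each list and 85.6% and 87.3% of the RPM. Each 10 ng library shared more with the longer lists of the 100 ng libraries: 58.4% and 55.7% of the sequences of replicate 1, and 59.9% and 57.5% of those of replicate 2, were in replicate 1 and 2 of 100 ng. Of the sequences in both 100 ng libraries, 60.3% (55681) were in neither 10 ng library. Of the sequences in both 10 ng libraries, 94.6% were also in a 100 ng library. All 4 libraries shared 13024 sequences, which carried 49.9% and 54.2% of the piRNA RPM at 10 ng and 52.2% and 53.0% at 100 ng.

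Agreement in level between replicates was also lower at 10 ng. Over 25734 sequences chosen on the 50 ng libraries alone (mean of at least 5 RPM), the log2(RPM + 1) values of the 10 ng replicates correlated with Pearson's r of 0.50 and those of the 100 ng replicates with 0.87. Between a 10 ng and a 100 ng library r was 0.39 to 0.44. The 50 ng replicates after oxidation, on which the sequences were chosen, correlated with r of 0.69. With the 10 ng libraries, r was 0.41 to 0.43 for replicate 1 of 50 ng and 0.52 to 0.55 for replicate 2. Before oxidation the 10 ng replicates gave 0.89, and a 10 ng against a 100 ng library 0.81 to 0.82. For the 2085 of these sequences at 50 RPM or more, r rose to 0.67 between the 10 ng replicates and to 0.97 between the 100 ng replicates, yet fell to 0.21 to 0.29 between inputs. Over sequences with a mean of at least 5 RPM in the 4 compared libraries, which the 10 ng values helped to choose, and present in at least 1 library of the pair, r was -0.06 between the 10 ng replicates and 0.01 to 0.23 between inputs, so which pair was closer depended on the sequences taken. Against the libraries before oxidation of the same input, r over the 25734 sequences was 0.27 to 0.29 at 10 ng and 0.81 to 0.82 at 100 ng. These correlations are across sequences, which are not independent replicates, and are given as a description.

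The median replicate difference depended on which sequences were taken. Over 29715 sequences with a mean of at least 5 RPM in the 4 libraries it was 1.93 on the log2 scale at 10 ng and 0.46 at 100 ng, where counting of reads alone would give 0.24 and 0.22. Chosen on the 50 ng libraries, the values were 0.85 and 0.46. In the first set 45.3% of sequences were at 0 in exactly 1 of the 10 ng libraries, and 8.54% in exactly 1 of the 100 ng libraries. For the 304 sequences at 200 RPM or more the median was 0.28 at 10 ng and 0.13 at 100 ng. Over those 304 the 50 ng replicates after oxidation differed more than either, by a median of 0.53.

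**Figure D3:**
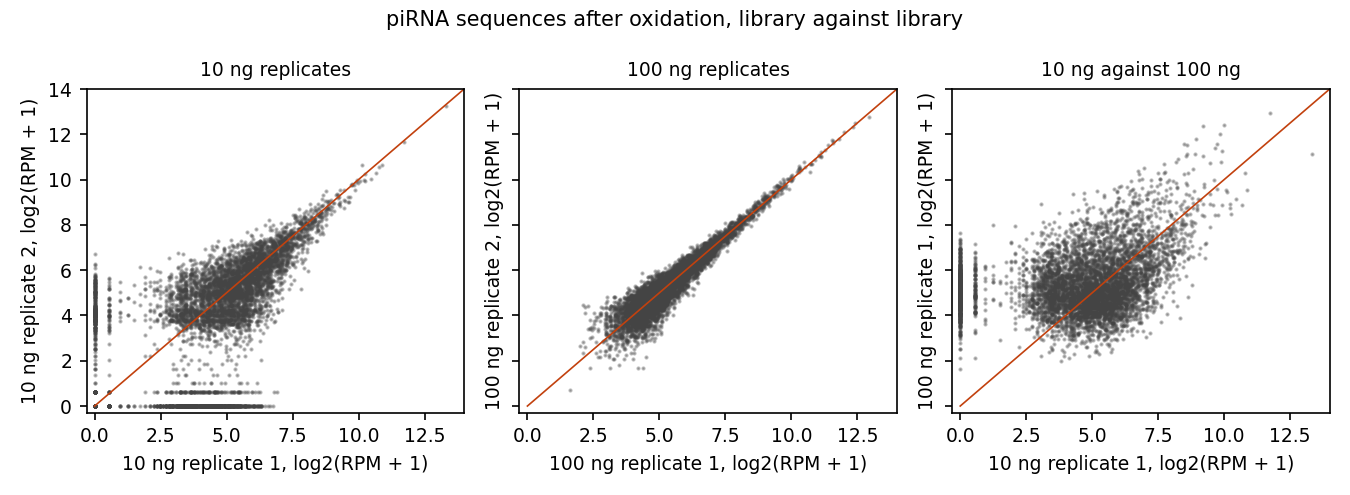
Levels on the log2(RPM + 1) scale of 6059 piRNA sequences with a mean of at least 20 RPM in the 50 ng libraries after oxidation, with 1 point a sequence and a line of equality. From left to right are the 10 ng replicates (r = 0.61, with 12.5% and 21.1% of sequences at 0), the 100 ng replicates (r = 0.95, none at 0) and replicate 1 of 10 ng against replicate 1 of 100 ng (r = 0.33).

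Single sequences were next compared across inputs. Of 22726 piRNA sequences tested, limma-trend with Benjamini-Hochberg adjustment called 41.4% after oxidation, 2850 (12.5%) higher and 6548 (28.8%) lower at 10 ng. Before oxidation it called 409 (1.8%) of the same sequences, 240 (1.06%) higher and 169 (0.744%) lower. That count rests on the same shared spread, which the variable 10 ng libraries after oxidation widen, so it may be too low. At an unadjusted p under 0.05 in limma-trend there were 3569 before and 11246 after oxidation. The log2 difference exceeded 1 in size for 28.55% before and 66.25% after. No fit with a spread for each group was made before oxidation. After oxidation the groups did not overlap for 5540 (24.4%) that were higher and 8311 (36.6%) that were lower. Of the sequences called higher, 1746 (61.3%) averaged at least 5 RPM in the 8 libraries outside the comparison, as did 6482 (98.99%) of those called lower and 85.2% of all tested. With sequences chosen on the 50 ng libraries instead, 2327 were higher and 7873 lower of 25734. The median size of the log2 difference was 1.52 after and 0.64 before oxidation, and the differences before and after, which share no library, correlated with r = 0.05 across sequences. For 6589 sequences (29%) the interaction of oxidation with input passed the test, above 0 for 1796 (7.9%) and below 0 for 4793 (21.1%). Without replicate 1 or 2 of 10 ng after oxidation these were 13380 and 11408, and without replicate 1 or 2 of 100 ng before it 3933 and 3971. The fit shares 1 spread among 6 groups although the 10 ng libraries after oxidation varied more than those of 100 ng; with a spread for each group, chosen after seeing the data, 127 were higher and 2801 lower. Leaving out replicate 1 or 2 of 10 ng gave 4912 and 4387 higher and 10677 and 8871 lower, and leaving out replicate 1 or 2 of 100 ng gave 1675 and 1440 higher and 5139 and 5059 lower. Scaled to the methylated spike-ins the split was 459 higher and 7758 lower, and with edgeR and TMM it was 656 and 7138.

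The most abundant piRNA sequences changed rank. piRNA A, of 29 nt with 5′ U and A at base 10, which matched no transcript, stood at 10168 and 9742 RPM at 10 ng and at 2252 and 2073 at 100 ng. It was 4.60-fold higher at 10 ng (log2 difference 2.20, SE 0.17, adjusted p = 3.2e-05), and the groups lay far apart. Before oxidation the order was the other way, with 475 and 491 RPM at 10 ng and 1019 and 952 at 100 ng. The 50 ng libraries after oxidation, at 2349 and 3720 RPM, lay near and above the 100 ng values.

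piRNA B, from the long intergenic RNA gene Gm21269, was the highest at 100 ng. It stood at 3388 and 3189 RPM at 10 ng and 7807 and 6954 at 100 ng, 2.24-fold lower at 10 ng (log2 difference -1.16, SE 0.09, adjusted p = 3.5e-05). Before oxidation it was lower at 10 ng by a like amount, at 3418 and 3584 against 6535 and 6185 RPM, and the interaction of oxidation with input did not pass the test (adjusted p = 0.117).

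piRNA C, of 31 nt and without a transcript match, stood at 1019 and 935 RPM at 10 ng and 5380 and 5722 at 100 ng. It was 5.68-fold lower at 10 ng (log2 difference -2.51, SE 0.14, adjusted p = 1.1e-05). piRNA D, from the antisense transcript gene Gm14244, begins with A and holds A at base 10. It stood at 594 and 638 RPM at 10 ng and 5215 and 5189 at 100 ng, an 8.45-fold difference (log2 difference -3.08, SE 0.17, adjusted p = 1.1e-05). piRNA V, of 33 nt, was lower too, at 382 and 349 RPM against 2981 and 3425. For C, D and V the replicates of each input lay close together and the difference was larger than before oxidation.

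The largest rises were of sequences scarcely seen at 100 ng. piRNA E stood at 113 and 132 RPM at 10 ng and had no read in either 100 ng library, so it was at least 266-fold higher, taking 3 reads over both 100 ng libraries as the floor. It stood at 0 and 2.67 RPM at 50 ng after oxidation and at 0.714 and 0.363 RPM at 10 ng before it. The other 5 of the 6 largest rises (piRNA F to J, 28 to 31 nt, all with 5′ U and without a transcript match) ranged from 30.1 to 127 RPM over the 10 ng libraries. At 100 ng none of the 5 exceeded 1.26 RPM (4 reads). piRNA Y and piRNA Z were smaller cases, with 36.5 and 38.98 RPM for Y and 31.4 and 35.3 RPM for Z at 10 ng. At 100 ng Y had no read and Z had 1 read in replicate 2. None of these 8 sequences averaged 5 RPM over the 8 libraries outside the comparison, so they were tested only because they were high at 10 ng, and their values are given as a description.

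The 6 largest falls were of sequences absent from both 10 ng libraries. They were picked for the size of their fall, so their values are given as a description. piRNA K, of 31 nt, had no read at 10 ng and stood at 166 and 165 RPM at 100 ng. It was at least 225-fold higher there, with 3 reads over both 10 ng libraries as the floor. Before oxidation it had been present at 10 ng, at 101 and 81.0 RPM against 101.5 and 104.9 RPM at 100 ng. The other 5 of the 6 largest falls (piRNA L to P, 29 or 31 nt) had no read at 10 ng either, and stood at 102 to 149 RPM at 100 ng. Before oxidation all 6 were present at 10 ng, at 23.2 to 138 RPM.

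The largest falls among sequences with a known place were picked for the size of their fall, so their values are given as a description. piRNA AA had no read in the 10 ng libraries and stood at 75.6 and 74.8 RPM at 100 ng. Before oxidation it stood at 73.6 and 106 RPM at 10 ng. piRNA AC likewise had no read at 10 ng and stood at 57.7 and 70.4 RPM at 100 ng. piRNA AB stood at 12.5 RPM in replicate 1 and 0 in replicate 2 at 10 ng, and at 241 and 262 RPM at 100 ng. Fitted on the 4 libraries alone, AB did not pass the test (adjusted p = 0.071).

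Among the sequences picked, some of 1 annotated gene differed in opposite directions. piRNA Y, Z and AA were picked for their large differences, and Y and Z were tested only because they were high at 10 ng. Such pairs are therefore given as a description. In Gm10619 (a long intergenic RNA gene, chr7:73781429-73816503, minus strand) piRNA Y was higher and piRNA V lower at 10 ng, and they lie within 1 annotated gene. In Gm49794 (a long intergenic RNA gene, chr17:27354111-27367492, plus strand) piRNA Z was higher and piRNA AA lower.

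Summed over genes, most differences between inputs were under 2-fold. The 64 annotated genes with at least 100 matched sequences and a mean sum of at least 100 RPM, a choice made after the values were seen, correlated on the log2 scale with r = 0.974 between the 10 ng replicates, 0.997 between the 100 ng replicates and 0.931 to 0.949 between inputs. The median ratio of 10 to 100 ng was 1.01 and the range 0.34 to 1.75, with 44 genes within 1.5-fold and 59 within 2-fold. The groups did not overlap for 26 genes that were higher and 25 that were lower at 10 ng, and no test was run on the sums. Gm21269, the gene of piRNA B, summed to 17287 and 16125 RPM at 10 ng and to 18854 and 17712 at 100 ng. These sums rested on 1120 sequences seen at 10 ng and 3417 seen at 100 ng. Gm49794 summed to 7829 and 7808 RPM against 7154 and 7058. The largest gap was in Gm14244, the gene of piRNA D, with 2550 and 2744 RPM against 7806 and 7753. Its sums before oxidation were lower at 10 ng as well, at 2934 and 2847 against 4678 and 4647 RPM. Cep83os, annotated as a bidirectional promoter long non-coding RNA, was the highest at 10 ng relative to 100 ng, at 1290 and 1248 against 771 and 680 RPM.

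**Figure D4:**
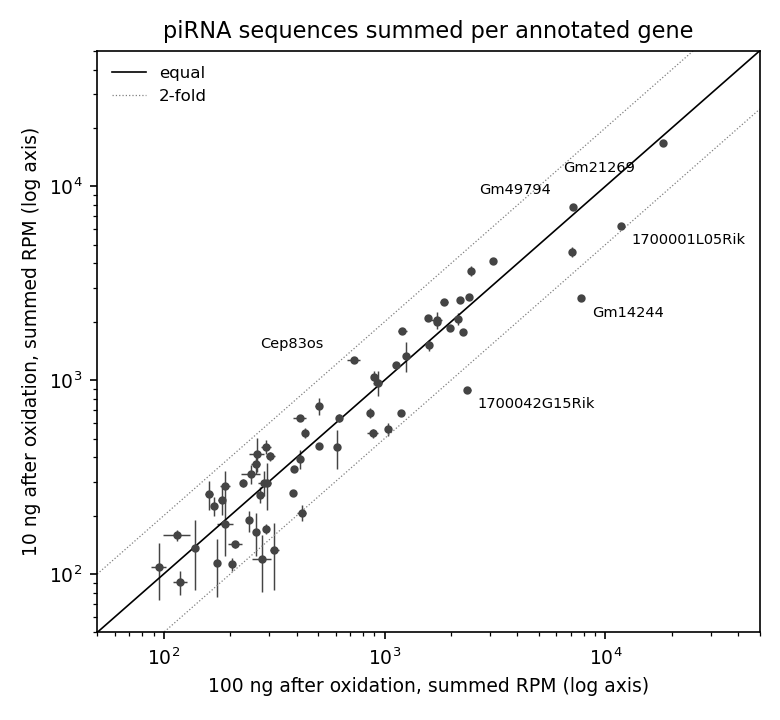
Summed RPM of the piRNA sequences that match each of 64 annotated genes, 10 ng against 100 ng after oxidation on log axes, with points at the mean and bars from the lower to the higher replicate. A solid line marks equality and dotted lines 2-fold; 59 genes lie between the dotted lines, and Gm14244 lies below them.

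The classes of matched transcripts differed between inputs by small shares of the piRNA RPM. Transcripts of long non-coding and other genes took 8.61% and 8.68% at 10 ng and 9.61% and 9.57% at 100 ng. Sequences antisense to a transcript took 2.40% and 2.49% against 2.04% in both 100 ng libraries, and the other way before oxidation, at 1.69% and 1.67% against 1.82% and 1.81%. The shares before oxidation are of the RPM of the sequences matched, not of all piRNA RPM. Those were the sequences seen in the 4 libraries compared or averaging at least 5 RPM over the 12 libraries. Neither class overlapped between inputs after oxidation. Genes with protein-coding transcripts took 3.21% and 3.20% against 3.10% and 3.18%. That class also held Gm10505, a gene annotated as a processed transcript, which summed to 2546 and 2637 RPM at 10 ng and 2216 and 2178 at 100 ng. No transcript was matched by 85.1% to 85.7% of the RPM in each library.

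Length shifted towards shorter reads at 10 ng. Reads of 29 to 32 nt, the size of MIWI-bound piRNAs, made up 63.6% and 62.4% of the piRNA RPM at 10 ng and 67.7% and 67.4% at 100 ng. Reads of 26 to 28 nt, the size of MILI-bound piRNAs, made up 23.7% and 23.9% against 22.3% and 22.1%. Reads under 26 nt made up 11.78% and 12.97% against 8.41% and 8.89%, and reads over 32 nt 0.881% and 0.759% against 1.55% and 1.58%. None of these 4 classes overlapped between inputs, and each had an exact 2-sided permutation p of 0.333 with 2 libraries a group (0.458 adjusted over 11 values). The same directions held before oxidation, with differences of -1.99 percentage points at 29 to 32 nt and 0.73 under 26 nt. Those after oxidation were -4.57 and 3.73 points.

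Within long piRNAs the shares at 30, 31 and 32 nt were lower at 10 ng. At 30 nt the share was 26.3% and 25.8% at 10 ng against 27.5% and 27.2% at 100 ng. At 31 nt the share was 14.2% and 13.7% at 10 ng against 16.9% in both 100 ng libraries, and at 32 nt 3.55% and 3.59% against 5.22% and 5.38%. At 29 nt it went the other way, 19.6% and 19.3% against 18.1% and 17.9%. Counted once for each distinct sequence in place of by RPM, the share at 29 to 32 nt was higher at 10 ng, by 2.55 points. So counted, the share at 26 to 28 nt also turned, to -1.83 points, while those under 26 nt (0.388 points) and over 32 nt (-1.11 points) kept their direction.

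**Figure D5:**
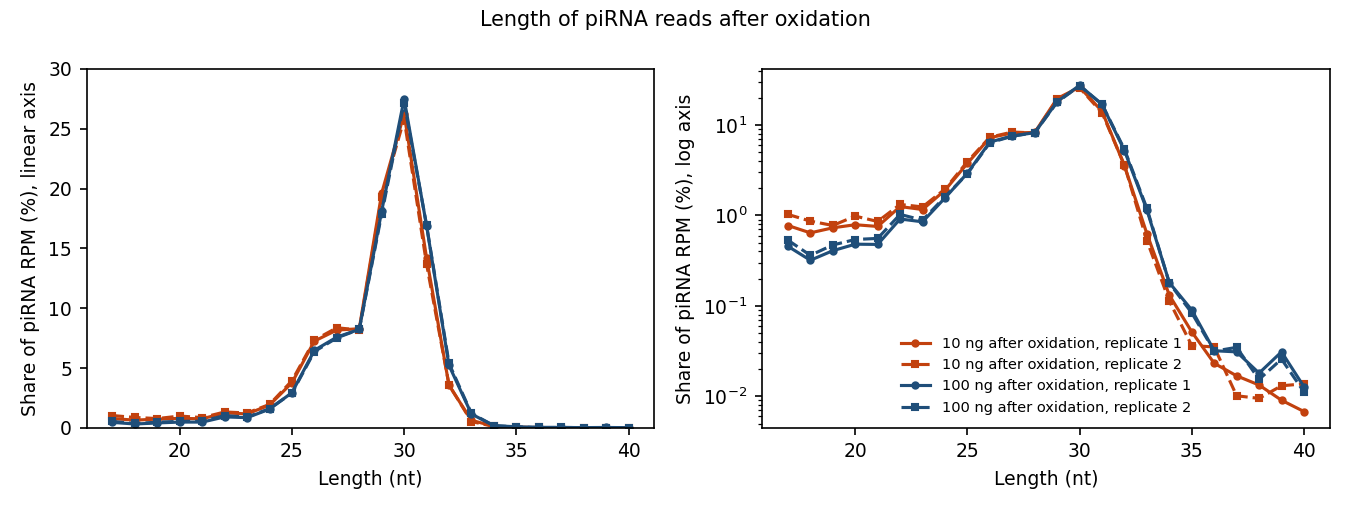
Share of piRNA RPM (%) at each length from 17 to 40 nt in the 10 ng and 100 ng libraries after oxidation, on a linear axis at left and a log axis at right. All 4 libraries peak at 30 nt, and the 10 ng libraries lie above the 100 ng libraries up to 27 nt and below them at 30 to 35 nt.

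Over all lengths the share with 5′ U overlapped between inputs. It headed 90.4% and 89.1% of the piRNA RPM at 10 ng and 90.1% in each 100 ng library. Within 29 to 32 nt it was more common at 10 ng, at 92.17% and 91.77% against 90.99% and 90.95%, and within 26 to 28 nt too, at 89.25% and 88.27% against 88.07% and 88.02%. Among reads under 26 nt it was rarer and more variable at 10 ng, at 83.1% and 77.8% against 88.5% and 89.0%. With each distinct sequence counted once, it was more common at 10 ng by 4.77 points. An A at base 10 was less common at 10 ng, at 31.32% and 30.99% against 33.36% and 33.53%, and before oxidation at 33.55% and 33.93% against 34.03% and 33.98%. At 26 to 32 nt, reads with both features made up 24.8% and 24.1% of the piRNA RPM at 10 ng and 26.6% in each 100 ng library, and reads with 5′ U alone 55.0% and 54.3% against 54.7% and 54.2%. U stood at base 10 in 29.2% and 29.3% of the RPM at 10 ng and 26.2% and 25.9% at 100 ng.

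Base content differed as well. U made up 31.18% and 30.98% of all piRNA bases at 10 ng and 29.4% and 29.3% at 100 ng, and A 27.9% and 27.8% against 29.2% in both. Before oxidation U was lower at 10 ng, at 27.19% and 27.01% against 28.1% in both 100 ng libraries. The last base, which carries the methyl group, was C for 40.8% and 40.9% of the RPM at 10 ng and 36.9% and 37.0% at 100 ng. It was U for 32.98% and 32.72% against 37.6% and 37.7%.

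The called sequences differed in the same features, given here as a description of lists that the test itself made. Of the 2850 higher at 10 ng, 44.7% ended in C and 30.9% in U, and of the 6548 lower, 33.5% and 39.8%. U made up 31.9% of the bases of the former and 27.1% of the latter. Of all runs of 4 bases, read on the strand sequenced and with overlaps allowed, those that differed most were GAGA, in 14.1% of the higher, 28.3% of the lower and 21.1% of all tested sequences, and TCTG, in 30.04%, 17.43% and 22.06%. Related runs moved with them, since AGAA and CAGA overlap GAGA and CTGT overlaps TCTG.

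Calls are set beside those over all tested sequences, of which 12.5% were higher and 28.8% lower, with a median log2 difference of -0.72; no test was run between classes. Of 299 tested sequences of 33 to 40 nt, 10 were higher and 126 (42.1%) lower, with a median of -1.72. Of 4503 at 31 to 32 nt, 488 were higher and 1514 (33.6%) lower, with a median of -1.04. Of 10470 at 29 to 30 nt, 1458 were higher and 2789 (26.6%) lower, with a median of -0.54. The classes from 20 to 28 nt also had more calls lower than higher. At 26 to 28 nt 12.2% were higher and 30.02% lower of 5713 tested. The shares were 12.02% and 27.3% of 1248 at 23 to 25 nt, and 8.37% and 18.3% of 263 at 20 to 22 nt. The 29 to 30, 26 to 28 and 23 to 25 nt classes thus lay near the shares over all tested. The 124 tested sequences of 19 nt had 6 higher and 5 lower and a median of 0. At 17 to 18 nt the order turned, with 18 (17.0%) higher and 10 (9.43%) lower of 106 tested and a median of -0.01. At 26 to 32 nt, 786 sequences with neither 5′ U nor A at base 10 had 66 higher and 320 (40.7%) lower, and 13181 with 5′ U alone had 1806 higher and 3583 (27.2%) lower, the latter near the share over all tested.

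Among the highest sequences of the shorter length classes, those of 17, 19 and 22 nt overlapped between inputs and those of 24 and 28 nt did not. piRNA S, of 22 nt, stood at 1762 and 1482 RPM at 10 ng and 1260 and 1566 at 100 ng, and piRNA Q, a 17-nt sequence that lies within S from its base 6, at 697 and 748 against 651 and 827. Their groups overlapped, with log2 differences of 0.20 (SE 0.15, adjusted p = 0.310) and -0.02 (SE 0.16, adjusted p = 0.928), so no difference was detectable on the RPM scale. Scaled to the methylated spike-ins both were lower at 10 ng, by log2 differences of -0.79 (adjusted p = 0.031) and -1.01 (adjusted p = 0.009). piRNA R, of 19 nt, also overlapped, at 496 and 356 against 473 and 623 RPM. piRNA T (24 nt) and piRNA U (28 nt) were lower, at 457 and 427 against 725 and 830 RPM and at 965 and 954 against 2456 and 2545 RPM.

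Reads of 17 to 22 nt that end in CCA, the bases added to the 3′ end of mature tRNAs, were more common at 10 ng. They made up 0.351% and 0.515% of the piRNA RPM at 10 ng and 0.179% and 0.198% at 100 ng. Before oxidation the shares were 0.0970% and 0.0968% against 0.0781% and 0.0732%. After oxidation all reads of these lengths were more common at 10 ng. The mean share at 10 ng was 1.98 times that at 100 ng for 17 to 18 nt, 1.71 for 19 nt and 1.49 for 20 to 22 nt. It was 2.29 times for the reads ending in CCA. Of 24 such sequences tested, 13 (54.2%) were higher and 3 (12.5%) lower, with a median log2 difference of 2.64, against 12.5% higher, 28.8% lower and -0.72 over all tested. The 10 ng libraries after oxidation helped to choose the sequences tested. Some of the 24 may have been tested only through high values there, so these calls are given as a description. Whether these reads carry a methyl group was not tested.

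Relative to the spike-ins, less piRNA was recovered at 10 ng. The spike-in table holds RNAs with and without a 3′ methyl group. There were 6.81 and 5.63 piRNA reads per methylated spike-in read at 10 ng and 11.5 and 13.5 at 100 ng, a log2 ratio of -1.01 (exact 2-sided permutation p = 0.333, n = 2 a group). Before oxidation the ratio was the other way, at 75.1 and 79.0 against 59.6 and 61.4. The methylated spike-ins did not move together: against sp1Me, sp2Me and sp3Me alone the log2 ratio was -1.68, -0.99 and -1.58, and sp2Me gave 96.4% to 97.8% of the methylated reads. A loss of piRNA and a gain of spike-in per ng of RNA cannot be told apart here.

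Unmethylated spike-ins, the measure of incomplete oxidation, were few at both inputs. They gave 7 and 7 reads at 10 ng, or 0.00240% (95% exact binomial interval 0.000965 to 0.00495) and 0.00233% (0.000935 to 0.00479) of spike-in reads. At 100 ng they gave 18 and 25 reads, or 0.00679% (0.00402 to 0.0107) and 0.0118% (0.00761 to 0.0174). Before oxidation the share was also lower at 10 ng, at 11.9% and 13.5% against 26.7% and 27.03%. After oxidation the groups did not overlap, although the interval of 100 ng replicate 1 overlapped both of those at 10 ng. The intervals cover counting error only, since PCR copies are not separate molecules.

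The summed piRNA RPM was 918618 and 880940 at 10 ng and 914542 and 907354 at 100 ng, and the summed miRNA RPM was 293 and 441 against 263 and 296. Both overlapped between inputs, with exact 2-sided permutation p of 1 and 0.667 at 2 libraries a group. In bulk RNA such as this, fewer cells of a type and less RNA per cell cannot be told apart. A comparison of amounts of total testis RNA addresses neither.

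Few miRNA reads remained, and few miRNAs differed. Of 1915 names, 117 were above 0 in any of the 4 libraries and 35 in all 4. Of 141 tested, of which 90 were above 0 in any of these 4 libraries and could differ, 0 were higher and 2 (1.42%) lower at 10 ng by limma-trend, with 14 at an unadjusted p under 0.05. DESeq2 called 1 higher and 3 lower, edgeR with TMM 3 higher and 0 lower, and the fit on the 4 libraries alone called none, with 3 at an unadjusted p under 0.05. Leaving out replicate 1 or 2 of 10 ng gave 2 and 0 higher and 6 and 1 lower, and leaving out replicate 1 or 2 of 100 ng gave 1 higher in each case and 7 and 8 lower.

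miR-99b-5p, which shares its cluster with let-7e and miR-125a, stood at 1.39 and 2.08 RPM (3 and 4 reads) at 10 ng and 8.96 and 9.47 RPM (30 reads each) at 100 ng. The log2 difference was -1.91 (SE 0.26, adjusted p = 0.009). miR-30a-5p stood at 0.925 and 1.04 RPM (2 reads each) against 3.29 and 6.32 RPM (11 and 20 reads), a log2 difference of -1.50 (SE 0.27, adjusted p = 0.029). Neither was lower in every fit, since edgeR with TMM gave adjusted p = 0.053 for miR-99b-5p and 0.210 for miR-30a-5p. miR-30a-5p also missed the threshold without replicate 2 of 10 ng (adjusted p = 0.127) and with the replicate block (0.065), and both missed it when fitted on the 4 libraries alone.

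miR-468-5p showed the largest gap in the other direction, at 35.6 and 38.5 RPM (77 and 74 reads) at 10 ng and 6.57 and 0.947 RPM (22 and 3 reads) at 100 ng. Its groups did not overlap, and it did not pass the test (log2 difference 3.31, SE 0.68, adjusted p = 0.051), while edgeR with TMM gave an adjusted p of 0.005. It is one of 8 tested names of repeat or other small RNA origin, which together held 51.1% and 53.8% of the miRNA RPM at 10 ng and 46.8% and 39.9% at 100 ng. Of these 8, 0 passed the test, 3 were higher and 3 lower in both 10 ng libraries. Among all 141 miRNAs tested, 13 (9.22%) were higher and 12 (8.51%) lower in this way. Only 90 of the 141, but all of the 8, were above 0 in any of the 4 libraries, so these shares understate the background. Within 10 ng they varied widely, as miR-3471 stood at 18.04 and 0 RPM, miR-5099 at 12.5 and 0.520, miR-3470a at 43.0 and 93.0 and miR-7214-5p at 30.1 and 87.8.

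Other miRNAs did not pass the test. miR-741-3p, the highest of the X-linked testis cluster, stood at 29.1 and 21.8 RPM at 10 ng and 21.5 and 40.1 at 100 ng, and 0 of the 20 members of the cluster tested passed, of which 14 were above 0 in any of the 4 libraries. miR-10b-5p stood at 12.5 and 16.6 RPM against 5.98 and 9.47 (adjusted p = 0.116). let-7f-5p stood at 2.31 and 6.24 RPM against 1.79 and 2.21, and 0 of 9 let-7 members passed. A single read was worth 0.299 to 0.520 RPM in the 4 libraries, so small differences in these miRNAs were not detectable.

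Markers of the tissue were read before oxidation, where miRNAs are intact. miR-741-3p of germ cells ranged from 20428 to 33938 RPM and miR-34c-5p from 1081 to 2256 RPM over the 10 and 100 ng libraries. miR-449a-5p, also of germ cells, was low, at 6.17 to 39.6 RPM. miR-202-5p of Sertoli cells ranged from 62.1 to 191 RPM and miR-143-3p of smooth muscle from 8933 to 13611 RPM. The other smooth muscle marker, miR-145a-5p, reached only 3.63 to 15.9 RPM. The blood markers miR-451a, miR-144-3p and miR-223-3p reached at most 0.726, 2.36 and 0 RPM, and miR-122-5p of liver at most 6.07 RPM.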

How the data were processed

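Per the labels, total RNA of mouse testis was made into libraries before and after oxidation. The submitters' processing notes name Bowtie, mm10 and hg38; versions, roles and what the RPM were divided by are not given in the sources used here. As the authors deposited them, the miRNA and piRNA values are in RPM, and the spike-in values are counts of raw reads. In every library 100% of the piRNA values, and 99.2% to 100% of the miRNA values, came within 0.01 read of a whole number.

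Testing took features averaging 5 RPM or more over the 12 libraries, on log2(RPM + 1), a scale that understates folds of low features, with limma-trend (limma 3.58.1, R 4.3.3) on 6 group means, as 10 against 100 ng after oxidation and its interaction with oxidation, at a Benjamini-Hochberg adjusted p below 0.05. edgeR 4.0.16 and DESeq2 1.42.0 were run on the recovered whole-read counts. Single values of a library (totals and shares) went to an exact 2-sided permutation test, and distinct sequences at equal depth were computed exactly. Distinct sequences were matched without mismatch to GENCODE M21 transcripts with Python 3.11.15; letters are printed only for sequences with 1 place in a non-coding transcript, since others could not be placed. The fit was tried on simulated counts with 1 spread for all 12 libraries, whereas here the 10 ng libraries after oxidation varied more. That trial cannot show how the fit does with such unequal spread.

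The members and lists were chosen with earlier results of these data known. Named piRNAs were the 4 highest, the 6 largest rises and falls called with groups that do not overlap (1 of any set sharing 18 bases), the highest of each length class and the 3 smallest interaction p, with the 3 largest rises and falls with a known place added later. Named miRNAs were the 8 highest, up to 4 called in each direction and the highest of each list. Replicate numbers mark technical replicates only, and same-numbered libraries did not deviate together, so they were not paired. Alternatives were another pseudocount, filter, scaling, tool or spread, a replicate block and each library left out.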

Additional observations from a re-analysis of the deposited data

Results flagged for a closer look

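By the interaction in limma-trend with Benjamini-Hochberg adjustment, the effect of input differed before and after oxidation for 6589 (29%) of 22726 piRNA sequences. The same held for 52 (36.9%) of 141 miRNAs. Before oxidation the fit called 27 miRNAs higher and 49 lower at 10 ng, and after it 0 and 2. Only 90 of the 141 were above 0 in any of the 4 libraries compared. An interaction of a miRNA can therefore restate the difference before oxidation. For miRNAs edgeR with TMM called 0 such interactions, with 11 at an unadjusted p under 0.05, and DESeq2 called 3. Among the sequences described, the interaction on the log2 scale was above 0 for piRNA A (3.23), E (6.33), F (4.68), G (4.28), H (3.79), I (4.44), J (4.09), S (1.05), Y (4.88) and Z (3.61). Of these, E to J, Y and Z were tested only because they were high at 10 ng after oxidation. It was below 0 for piRNA C (-1.20), D (-2.13), K (-7.19), L (-6.99), M (-6.33), N (-6.01), O (-5.83), P (-6.91), V (-2.09), W (-6.01), X (-4.65), AA (-6.20), AB (-5.67) and AC (-4.60). Of these, K to P and AA to AC were picked for the size of their fall, and L, W and X for their small interaction p. piRNA W and X have not been described above. W (30 nt) had no read at 10 ng and stood at 93.2 and 81.8 RPM at 100 ng, and X (29 nt) stood at 24.51 and 25.98 against 558 and 641 RPM. Among miRNAs it was 1.96 for miR-7214-5p, 3.35 for miR-468-5p, 1.02 for miR-10b-5p and -1.18 for miR-99b-5p.

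Some shares moved in opposite directions before and after oxidation, a difference that was not tested. Reads of 19 nt were higher at 10 ng after oxidation by 0.313 percentage points (0.730% and 0.775% against 0.408% and 0.472%) and lower before it. Reads ending in G differed by -0.456 points after oxidation and were higher at 10 ng before it. At base 10, U differed by 3.20 points after oxidation (29.2% and 29.3% against 26.2% and 25.9%) and was lower at 10 ng before it, and C by -2.05 points and was higher before it. Sequences antisense to a transcript differed by 0.404 points, and those of structural or other small RNA genes by -0.0157 points. C content differed by -0.502 points and U content by 1.73 points after oxidation, and these 4 had the other sign before it. For both transcript classes the shares before oxidation are of the RPM of the sequences matched, chosen partly on the libraries after oxidation.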

How the results depend on the processing

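Leaving out 1 library moved the piRNA calls to 1440 to 4912 higher and 5059 to 10677 lower, and the interaction calls to 3933 to 13380. The miRNA calls ran from 0 to 2 higher and 1 to 8 lower, the log2 ratio of summed miRNA RPM from 0.069 to 0.66 and that of distinct sequences from -2.08 to -1.61. Without a filter 988 piRNA sequences were higher, 1818 lower and 669 had an interaction. At a mean of at least 50 RPM these were 298, 985 and 1113, where fewer sequences were tested. Spike-in scaling gave 459 higher, the 4 libraries alone 863, edgeR with TMM 656 and DESeq2 1617. A spread per group gave 127 higher, 2801 lower and 2945 interactions. The cause was not tested.

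For miRNAs, 1 was higher with a pseudocount of 0.1 or 10, without a filter, centred on medians, with edgeR without TMM or with DESeq2. With the 50 ng filter 2 were higher, and with edgeR and TMM 3. Spike-in scaling gave 4 lower, edgeR without TMM 1, and edgeR with TMM and the 4 libraries alone gave 0. With the replicate block, which pairs libraries by number only, 1 miRNA was lower in place of 2, and 2631 piRNA sequences were higher and 6483 lower, with 8951 called in both fits. The replicate numbers did not pair the libraries (correlations of deviations from -0.05 to 0.01).

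The log2 ratio of miRNA RPM was -0.63 scaled to spike-ins. piRNA per spike-in gave -1.68 for sp1Me and -1.58 for sp3Me. With each distinct sequence counted once, the differences in percentage points were 0.388 under 26 nt, -1.83 at 26 to 28 nt, 2.55 at 29 to 32 nt, -1.11 over 32 nt, 4.77 for 5′ U and -1.40 for A at base 10. Over sequences of at least 5 RPM they were 2.30, 1.73 and -3.32 for the first 3 classes and -2.04 for A at base 10. Without the 100 highest sequences they were 0.703, -3.48, -0.569 and -2.68 for 26 to 28 nt, 29 to 32 nt, over 32 nt and A at base 10. The replicate difference at 10 ng exceeded that at 100 ng by 1.48, by 0.35 at 50 RPM or more and by 0.39 over sequences chosen on the 50 ng libraries.

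For named piRNA sequences under other settings, 492 values kept direction and call, 7 gained and 4 lost a call, and 5 changed sign. piRNA S turned to -0.79 with spike-ins, -0.54 with edgeR and -0.37 with DESeq2. piRNA Q ranged from -0.20 (without 100 ng replicate 1) to 0.15 (without 100 ng replicate 2), and was 0.03 without 10 ng replicate 1. miR-10b-5p turned to -0.048 with spike-ins. With 1 library left out, miR-34c-5p ranged from -0.49 to 0.23 and miR-741-3p from -0.65 to 0.22, and with edgeR they were 0.22 and 0.17. At 634 to 937 miRNA reads a library, counting limits every miRNA value.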
